A study of Mus musculus with 16 samples.

Results

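Cytosolic ribosomal proteins are the protein part of the ribosome that translates nuclear-encoded mRNAs. They were taken here as every protein-coding row of the count table with an Rpl or Rps symbol followed by a digit, together with Rplp0, Rplp1, Rplp2 and Rpsa. 10 kinases of the ribosomal protein S6 kinase families have like symbols and were left out. The rule found 92 genes among 39057 rows. They were 46 standard proteins of the large subunit, 31 standard proteins of the small subunit, 8 paralogs of standard proteins and 7 other rows that the symbols bring in. The 7 other rows were 6 rows with a pseudogene-style name that the annotation calls protein-coding, and Rps19bp1, which encodes a protein that binds RPS19 and is no subunit.

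The libraries came from primary cortical brain endothelial cells of targeted replacement mice, in which the human APOE3 or human APOE4 coding gene is expressed from the mouse Apoe promoter. By the labels each of the 16 cultures was isolated from the cortex of a different mouse of 21 to 28 days (the methods text gives the upper age alone), with 8 cultures per genotype and 4 of each sex within a genotype. All cultures were selected in 8 µg/ml puromycin, which kills most cells that lack efflux transporters, were grown to confluence and received no further treatment. RNA was poly-A selected and sequenced in pairs of 50-nt reads. The replacement is present in every cell of the mouse and not in endothelial cells alone. In a bulk library fewer cells of a type and less RNA per cell cannot be told apart.

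The ribosome joins a small subunit, which reads the mRNA, and a large subunit, which forms the peptide bonds. Most ribosomal proteins are needed in equal number, and their mRNAs are among the most abundant of a growing cell. Many of these mRNAs start with a C followed by a run of pyrimidines, the terminal oligopyrimidine motif, through which the kinase complex mTORC1 regulates their translation. Free RPL5 and RPL11 bind MDM2 and stabilise p53 when ribosome assembly fails.

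The start of the gene is shown for 6 of the genes described, because this is where the motif lies and because Rps27, the gene that changed most, has near copies elsewhere in the genome. Each line gives 10 bases before and 20 bases from the RefSeq transcription start on the strand of the gene, and capitals mark the oligopyrimidine run.
Rps27: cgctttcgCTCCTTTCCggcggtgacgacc
Rps27rt: ttatcccttgCTTTCCggcggtgacgacct
Rps27l: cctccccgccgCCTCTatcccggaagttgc
Rps28: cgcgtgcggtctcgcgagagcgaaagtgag
Rpl28: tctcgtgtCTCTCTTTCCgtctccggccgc
Rpl13a: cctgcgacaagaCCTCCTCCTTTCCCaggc

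In GRCm38.p6 these windows are chr3:90213629-90213658 (minus strand) for Rps27, chr9:114982720-114982749 (minus) for Rps27rt and chr9:66946076-66946105 (plus) for Rps27l, of which this is the first listed start. They are chr17:33824543-33824572 (minus) for Rps28, chr7:4792955-4792984 (plus) for Rpl28 and chr7:45128726-45128755 (minus) for Rpl13a. The Rps27 and Rps27rt windows shared an unbroken run of 19 bases, whereas Rps27 and Rps27l shared at most 4. The Rps28 window held no such run. A run was counted where a C within 5 bases of the start was followed by at least 4 pyrimidines on the gene strand. RefSeq starts were found for 66 of the 92 genes, and 30 of these (45.5%) had the run, against 21.2% of all 27025 genes in that table. Whether a run was found depends on the listed start, since Rpl35a and Rps24 had it at a listed start and lacked it at another. A gene without the run here, such as Rps28, is thus not shown to lack the motif in its mRNA. The genes with and without the run at a listed start had median log2 fold changes of 0.0013 (30 tested genes) and 0.0035 (33 tested genes) between genotypes.

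The libraries held 12717847 to 18624417 counts assigned to genes. Human APOE was counted in all libraries, with 15504 to 22318 counts in APOE3 and 7672 to 14722 in APOE4, and mouse Apoe had 212 to 290 and 128 to 251 counts. All 14 endothelial marker genes were well measured, with summed levels of 19180 to 20634 CPM (counts scaled to an equal library total) in APOE3 and 19199 to 21335 CPM in APOE4, and 1 of them (Emcn) was higher in APOE4. The 10 pericyte and smooth muscle markers summed to 187 to 354 CPM and 222 to 340 CPM, none at 0 in every library. Of the 7 of them that were tested none was called, with a median log2 fold change of 0.25 and 6 above 0, and their part in the results was not tested. The summed fibroblast (6 genes, Dpt at 0), astrocyte (6 genes) and neuron (5 genes) markers reached at most 77.03, 4.27 and 17.7 CPM in any library. Those of microglia (6 genes, P2ry12 and Itgam at 0) and oligodendrocytes (5 genes, Olig2 at 0) reached at most 0.647 and 1.97 CPM. By contrast 37 of 40 cell cycle genes were called higher in APOE4, against 6.71% of all genes tested. The mean log2 CPM of this list is used below as a cell cycle score. It averaged 5.36 ± 0.352 over the APOE3 libraries and 5.95 ± 0.268 over the APOE4 libraries (SD, n = 8 each). The score is a level of RNA and no measure of proliferation. For confluent cultures the paper reports no genotype difference in cell density or in BrdU-positive nuclei. CPM values here are scaled by the trimmed mean of M values (TMM).

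Ribosomal protein genes were abundant and differed widely in level, also per kb of 1 representative transcript. That transcript was long for some genes, such as Rps15a (5179 bases, 95.5 CPM, 18.4 CPM per kb) and Rps20 (3706 bases, 280 CPM, 75.5 CPM per kb). The part of this choice in the spread was not tested. The 77 standard genes had a median level of 234 CPM per kb of transcript, with quartiles of 137 and 354 CPM per kb. The median level was 201 CPM per kb for the large subunit and 263 CPM per kb for the small subunit. Rplp1, which forms the flexible stalk of the large subunit that recruits translation factors, had the highest level at 1450 CPM per kb. It was followed by Rps15 of the small subunit head (811 CPM per kb), Rpl41, the smallest ribosomal protein (669 CPM per kb), Rps27 (657 CPM per kb) and the stalk base protein Rplp0 (505 CPM per kb).

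The lowest standard genes, Rpl24 and Rpl13a, are rows that overlap other gene models. Rpl24, a protein at the interface of the subunits, was counted at 4.26 CPM per kb. Of its exon bases, 47.0% lie on the same strand within exons of another gene model, Gm28037, which had no counts. Rpl13a, a large subunit protein that can also leave the ribosome to act as a translational repressor, was counted at 17.7 CPM per kb, and 35.4% of its exon bases overlap Gm45713, Mir5121 or Snord33. Levels of these rows are therefore uncertain, while the comparison of genotypes within a row uses the same counting in every library.

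Ribosomal protein genes have given rise to many pseudogenes, so the share of 50-base stretches of each representative transcript that also occur in a transcript of another gene was counted. The median over the 85 tested genes was 51.7%, and 44 genes were over 50%. The share was 98.6% for Rps27 and 2.96% for Rps3. Over the 77 standard genes, which share their libraries and the counting method, Spearman's rho between level per kb and the shared percentage was 0.073. How reads that map to several places were counted is not known, so this value does not show whether sharing alters the counts.

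**Figure D1:**
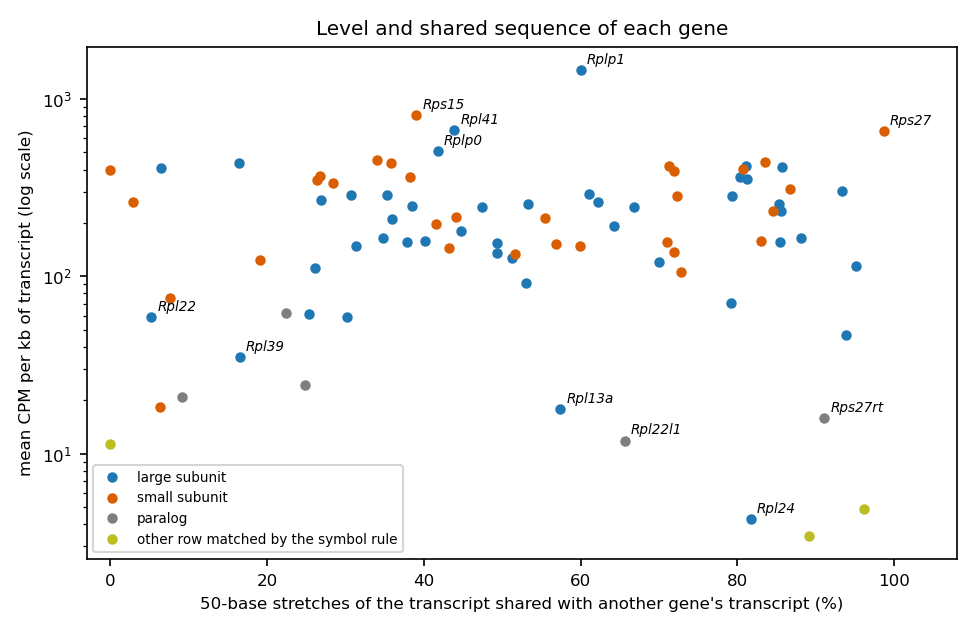
Mean level over 16 libraries (CPM per kb of transcript, log scale) against the percentage of 50-base transcript stretches shared with another gene, 1 point per tested gene, coloured by class. The 5 genes with the highest level per kb lie between 39.0% (Rps15) and 98.6% (Rps27) on the sharing scale. Rpl24 lies lowest among the standard genes at 4.26 CPM per kb.

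The question was whether replacement with APOE4 in place of APOE3 altered the expression of the ribosomal protein genes. Of the 92 genes, 85 passed the filter on low counts. The 7 that did not were Rpl39l (at most 21 counts in a library), Rpl36a-ps1 (at most 5), Rpl3l (at most 2), Rpl36-ps4, Rpl9-ps1 and Rps12-ps3 (at most 1 each), and Rpl10l, with 0 counts in all 16 libraries. Rpl3l, Rpl10l and Rpl39l are paralogs known from muscle and testis.

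Few ribosomal protein genes differed between the genotypes, and these were small subunit genes. No gene of the 85 was higher in APOE4 and 2 were lower, Rps27 and Rps14, at an adjusted p under 0.05 (edgeR quasi-likelihood test, Benjamini-Hochberg over 12481 genes). This is 2.35% of the tested members, while 12.8% of all genes tested were called, 6.71% as higher and 6.09% as lower. At an unadjusted p under 0.05, 3 members were higher, among them Rpl13a and Rps24, and 6 lower (Rps27, Rps14, Rps29, Rps28, Rps25 and Rpl3), which is 10.6% of members against 29% of all genes. No member had genotypes that did not overlap, against 0.625% of all genes tested. With DESeq2 in place of edgeR no member was higher and 3 were lower, since Rps29 also passed (adjusted p = 0.0387). The share of all genes called by DESeq2 is not given.

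The differences were also small in size. The median log2 fold change (APOE4 against APOE3) was 0.0018 for members and -0.0002 for all genes tested, with 45 members above 0 and 40 below. The median absolute log2 fold change was 0.034 for members and 0.089 for all genes, and 78 of 85 members (91.8%) lay under 0.1, against 54.4% of all genes. Members were measured at a median of 180 CPM and a median standard error of 0.040, all genes at 26.1 CPM and 0.066. For 81 of 85 members the 95% interval of the log2 fold change lay inside ±0.26, the median absolute log2 fold change of the genes that were called. Changes of that size or more are thus outside the interval for all but Rpl13a, Rpl22l1, Rpl24 and Rpl9-ps6.

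**Figure D2:**
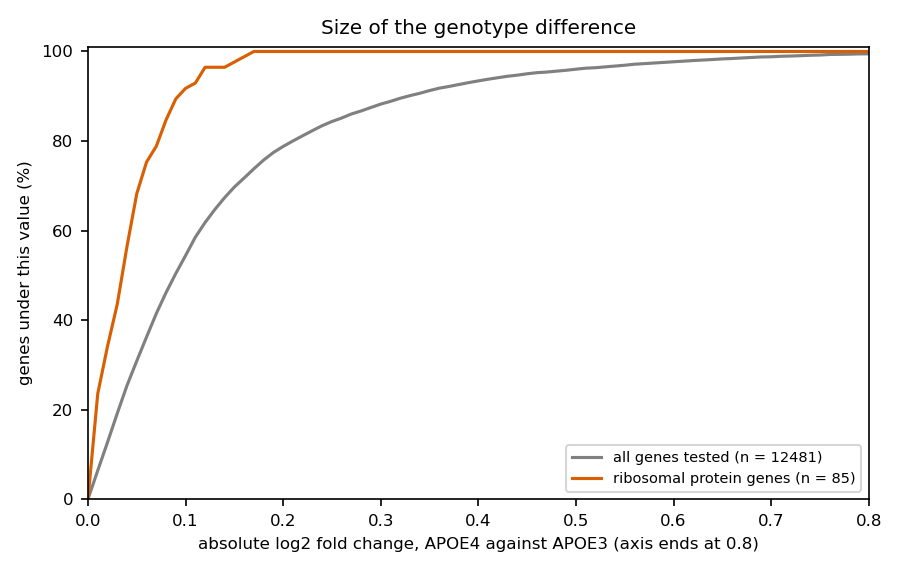
Percentage of genes whose absolute log2 fold change between genotypes lies under the value on the x axis, for 85 ribosomal protein genes and all 12481 genes tested. The curve of the ribosomal protein genes rises faster, with 91.8% of genes under 0.1 against 54.4% of all genes.

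The subunits were described separately. Of the 46 large subunit genes, 22 lay above 0 and 24 below, with a median log2 fold change of -0.0023, a range of -0.08 to 0.15 and no gene called. Of the 31 small subunit genes, 15 lay above 0 and 16 below, with a median of -0.0016, a range of -0.17 to 0.12 and 2 genes called lower. The 6 lowest of all members were small subunit genes, in order Rps27, Rps28, Rps14, Rps29, Rps25 and Rps23. This order was noticed after the values were seen and was not tested.

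**Figure D3:**
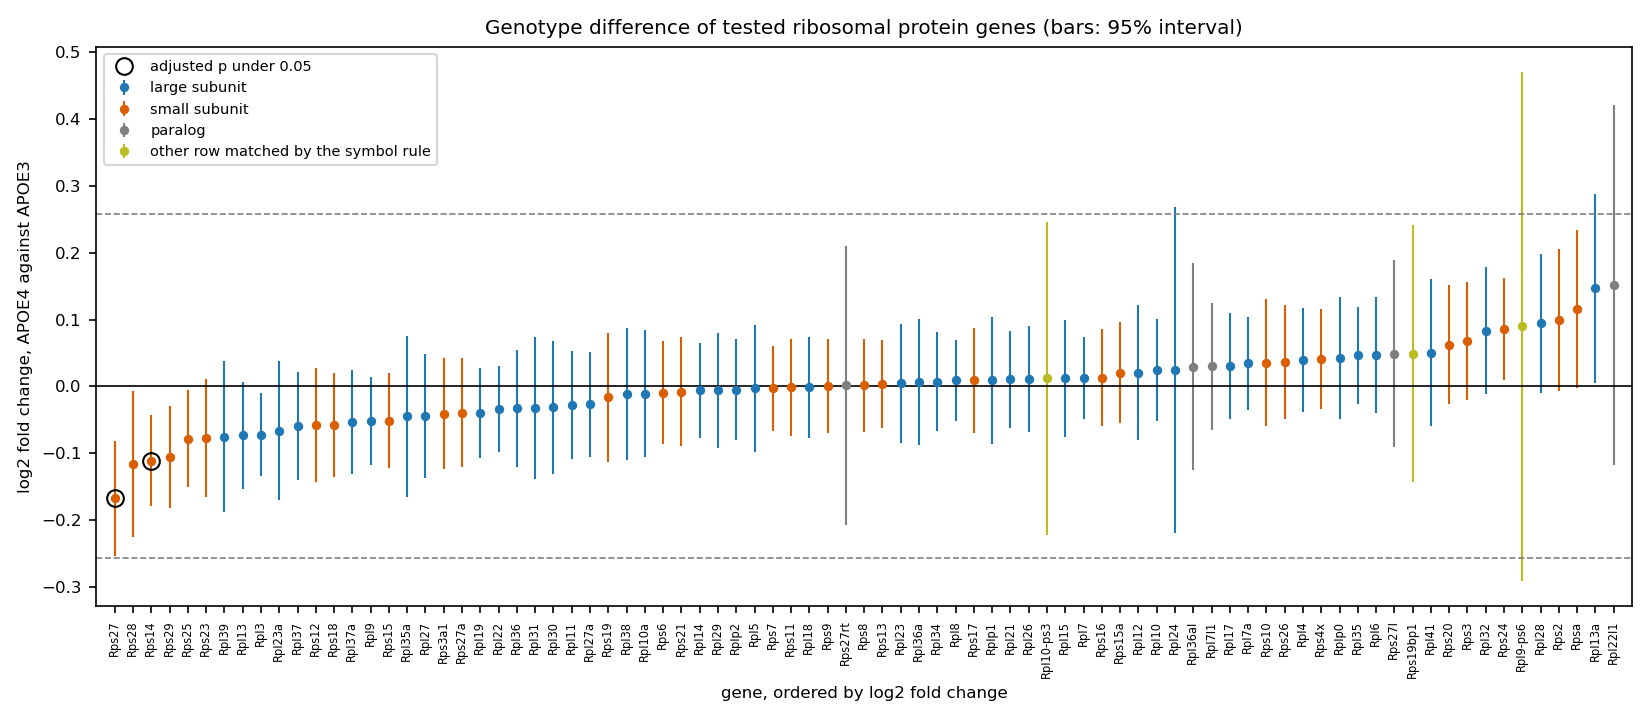
Log2 fold change of APOE4 against APOE3 (y axis) for the tested genes reported here (x axis, ordered), with 95% intervals and coloured by class. Circles mark adjusted p under 0.05 and dashed lines mark ±0.26, the median absolute log2 fold change of all called genes. The points form a narrow band around 0, and the 6 lowest, from Rps27 at -0.17, are small subunit genes.

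Rps27, a zinc-binding protein of the small subunit, lies on chromosome 3 (90212522 to 90213651, minus strand, GRCm38). Its lowest, median and highest levels were 224, 237 and 264 CPM in APOE3 and 194, 213 and 234 CPM in APOE4. Each of the 8 APOE4 libraries lay under the median of APOE3, and the groups overlapped because the highest APOE4 library (replicate 36) was above the lowest APOE3 libraries. The mean fell from 240 ± 13.3 to 214 ± 12.9 CPM (SD, n = 8 each), a log2 fold change of -0.17 (SE 0.041, 95% interval -0.25 to -0.08, adjusted p = 0.0141). With 98.6% of its stretches shared with 9 other genes, 8 of them pseudogenes, reads of Rps27 and of its copies may not be fully separated.

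Rps14, a small subunit protein needed to mature the rRNA of that subunit, lies on chromosome 18 (60747098 to 60778546, plus strand). Its lowest, median and highest levels were 265, 272 and 294 CPM in APOE3 and 237, 257 and 269 CPM in APOE4. Again each of the 8 APOE4 libraries lay under the median of APOE3, with a narrow overlap. The mean fell from 275 ± 9.35 to 254 ± 11.3 CPM (SD, n = 8 each), with -0.11 as the log2 fold change (SE 0.033, adjusted p = 0.0308). Of its stretches 28.4% were shared, with 2 pseudogenes. The call for Rps14 was lost in 5 of 16 fits that left out 1 library (APOE3 replicates 26, 30 or 33, APOE4 replicates 39 or 41), where the adjusted p reached 0.0724, whereas that for Rps27 was kept in all 16.

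Rps29 and Rps28, short small subunit proteins of which the first binds zinc, had values in the same direction without passing the edgeR test. Rps29 had lowest, median and highest levels of 167, 174 and 188 CPM in APOE3 and 153, 161 and 184 CPM in APOE4 (log2 fold change -0.11, SE 0.037, adjusted p = 0.0607). Rps28 had 88.5, 97.0 and 110 CPM in APOE3 and 79.6, 87.2 and 107.9 CPM in APOE4 (a log2 difference of -0.12, SE 0.052, adjusted p = 0.144). For both of them, 7 of 8 APOE4 libraries were under the median of APOE3, and the single library above it was APOE4 replicate 35. Without that library the log2 fold changes were -0.13 for Rps29 (adjusted p = 0.0172) and -0.16 for Rps28 (adjusted p = 0.0294), and 4 members were called lower. The share of all genes called lower in that fit is not given, so the rise cannot be read as particular to the members.

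At the other end of the order, no member passed the test. Rpl22l1, a paralog that can take the place of Rpl22, had the highest log2 fold change, 0.15 with an adjusted p of 0.472 and SE of 0.13, on only 63 to 131 counts per library. Rpl13a had 15.2, 17.9 and 19.6 CPM in APOE3 and 16.3, 19.5 and 21.7 CPM in APOE4. In 7 of 8 APOE4 libraries Rpl13a exceeded the median of APOE3, but the log2 fold change of 0.15 did not pass the test (SE 0.068, adjusted p = 0.156). Rpsa, a small subunit protein also known as the laminin receptor precursor, had 374, 406 and 438 CPM in APOE3 and 391, 419 and 535 CPM in APOE4.

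The log2 fold change of Rpsa was 0.12 (SE 0.057, adjusted p = 0.185), and its highest value was again in APOE4 replicate 35. Rps2, which lines the mRNA entry of the small subunit, had 414, 442 and 481 CPM in APOE3 and 424, 465.8 and 559 CPM in APOE4 (a log2 difference of 0.10, SE 0.051, adjusted p = 0.204). For Rpl28, a large subunit protein, it was 0.09 (SE 0.050, adjusted p = 0.219). Rpl9-ps6, a row at 21 to 53 counts that shares 89.2% of its stretches with other genes, had 0.09 (SE 0.18). For Rpsa and Rps2 the log2 fold changes without replicate 35 were 0.07 and 0.06.

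**Figure D4:**
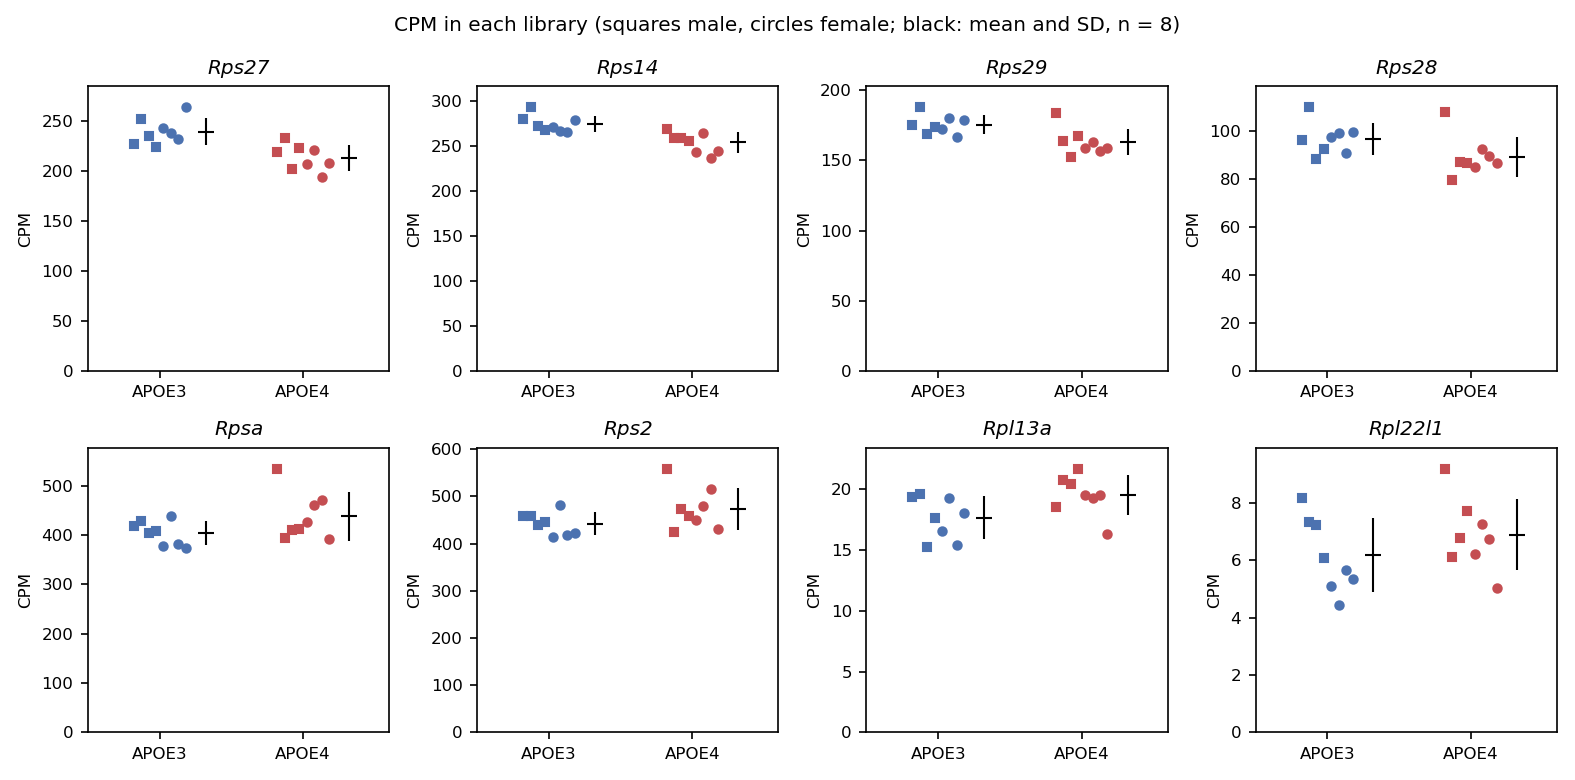
Level (CPM) of 8 genes in each library by genotype, with squares for male and circles for female cultures and the mean ± SD in black (n = 8). Rps27 and Rps14 sit lower in APOE4 with some overlap, while the top APOE4 value of Rps29, Rps28, Rpsa, Rps2 and Rpl22l1 belongs to replicate 35.

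Some members are described for their roles, although they were not among the largest changes. Rpl5 and Rpl11, which bind MDM2, had log2 fold changes of -0.0033 (SE 0.046) and -0.03 (SE 0.039). Rps6, the substrate of the S6 kinases, had -0.0094 (SE 0.037). The stalk genes Rplp0, Rplp1 and Rplp2 had 0.04 (SE 0.044), 0.0092 (SE 0.046) and -0.0050 (SE 0.036). None of these passed the test. Rpl5, Rpl11, Rps6 and Rplp2 were added to the named genes for their roles, after the values were seen.

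Paralogs allow a near copy to be set beside its standard partner. Rps27l, a target of p53, had 28.9, 30.2 and 33.3 CPM in APOE3 and 27.4, 30.7 and 42.3 CPM in APOE4, a log2 fold change of 0.05 (SE 0.067). Rps27rt, a retrotransposed copy of Rps27 with 91.1% shared stretches, was at 4.61 to 6.82 CPM in APOE3 and 4.44 to 6.98 CPM in APOE4, a log2 fold change of 0.0016 (SE 0.10). Neither was called, and the difference between their change and that of Rps27 was not tested. The levels per kb were 657 for Rps27, 62.3 for Rps27l and 15.9 for Rps27rt.

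None of the remaining pairs passed the test between genotypes. Rpl22, a large subunit protein, had a log2 fold change of -0.03 (SE 0.031) at 59.0 CPM per kb, and its paralog Rpl22l1 was at 11.8 CPM per kb. Rpl36a and Rpl36al were at 156 and 24.4 CPM per kb with log2 fold changes of 0.0063 (SE 0.045) and 0.03 (SE 0.074). Rpl7 and Rpl7l1, a protein of ribosome assembly, were at 255 and 20.8 CPM per kb with 0.01 (SE 0.029) and 0.03 (SE 0.046). Rpl3, which lies at the peptidyl transferase centre, had -0.07 (SE 0.030, adjusted p = 0.113), and it was under the median of APOE3 in each of the 8 APOE4 libraries.

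The 8 tested genes with under 10% shared stretches, among them Rpl22, Rpl8, Rps15a, Rps20 and Rps3, were described on their own. Their log2 fold changes ranged from -0.03 to 0.09 with a median of 0.04, and none was called. A low percentage can come from a long representative transcript. Those of Rps15a (5179 bases) and Rps20 (3706 bases) still held 327 and 277 stretches shared with 64 and 50 other genes. These genes are therefore no clean check on shared sequence. Over the 85 genes Spearman's rho between log2 fold change and transcript length was 0.36, against -0.043 over all genes tested, and with GC content -0.16 against -0.19. With GC content and length corrected within each library, 6 of 85 members were called lower (Rps27, Rps14, Rps29, Rps23, Rpl37a and Rpl9) and none higher. This share is near the 6.08% of all genes called lower in that fit, and the share called higher in it is not given. The medians in that fit were -0.02 for members and -0.01 for all genes.

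The ribosomal protein genes rose and fell together from library to library, within both genotypes. They took 1.66 to 1.81% of counts in APOE3 (median 1.71%) and 1.64 to 1.89% in APOE4 (median 1.68%), with means of 1.72% ± 0.0614 and 1.72% ± 0.0808 (SD, n = 8 each), and the groups overlapped almost fully. In APOE4 replicate 35, 81 of 85 genes were above their own mean over 16 libraries, with a median deviation of 0.13 log2 units, and in APOE4 replicate 43 only 8 were, with a median of -0.08. In APOE3 replicates 25 and 26, 72 genes each were above their mean. Replicate 35 also had the lowest total of counts (12717847), the highest cell cycle score (6.41) and the lowest count of human APOE (7672), and the part of these in its high ribosomal protein share was not tested. Without it, the median log2 fold change of the members was -0.02 and the APOE4 mean share 1.69%.

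**Figure D5:**
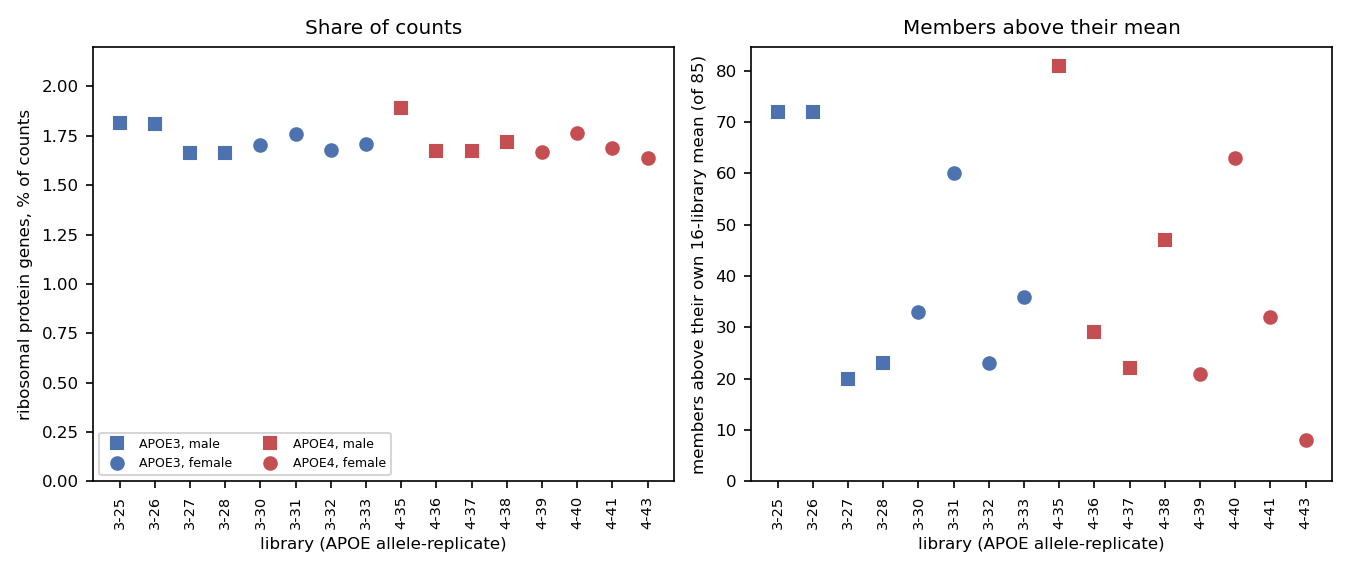
Share of all counts on ribosomal protein genes (left, %) and number of the 85 tested genes above their own 16-library mean (right) in each library, labelled by APOE allele and replicate, with squares for male and circles for female cultures. Both genotypes span a similar range of shares, 1.66 to 1.81% and 1.64 to 1.89%, and APOE4 replicates 35 and 43 hold the extremes with 81 and 8 genes.

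Since the cell cycle score differed between genotypes, the fit was repeated with the score as a covariate. In that fit, 74 of 85 members had a log2 fold change below 0, against 50.8% of all genes, with a median of -0.05 against -0.0019. No member was called, and no gene of the 12481 (875 had an unadjusted p under 0.05). At an unadjusted p under 0.05, 10 of 85 members were lower and 0 higher, against 3.47% of all genes lower. Rps27 had a log2 fold change of -0.10 there (adjusted p = 0.749). Genotype and score cannot be told apart in this fit, because the score moves with genotype. Members also rose and fell together by library, so the counts of members in this fit are not of independent values. APOE4 replicate 35 had the highest score (6.41) and 81 of 85 members above their own mean. Its part in this fit was not tested.

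Sex made no difference that passed the test for any member. In female against male cultures 0 members were called, against 0.0721% of all genes (9 genes), and 3 had an unadjusted p under 0.05 (Rpl22l1, Rps15a and Rpl13). Values were below 0 in 74 of 85 members, with a median log2 fold change of -0.04 (female minus male) against 0.0004 for all genes. Because members rose and fell together by library, these are not independent values. In APOE3, 46.8 ± 29.2 members in male and 38 ± 15.7 in female cultures were above their own mean. In APOE4 it was 44.8 ± 26.4 and 31 ± 23.5 (mean ± SD, n = 4 each). Rpl22l1 had the largest, at -0.36 (SE 0.11, unadjusted p = 0.00294, adjusted p = 0.987), with 6.09 to 9.20 CPM in males and 4.43 to 7.27 CPM in females. The 4 X-linked members, Rpl10, Rpl36a, Rpl39 and Rps4x, had female minus male log2 fold changes of 0.0068, 0.05, 0.04 and -0.03, none past the test. Rpl10 completes the large subunit before it joins the small subunit, Rpl39 lines the peptide exit tunnel and Rps4x is a small subunit protein.

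Between genotypes these 4 X-linked genes had log2 fold changes of 0.02 for Rpl10, 0.0063 for Rpl36a, -0.08 for Rpl39 and 0.04 for Rps4x, with standard errors of 0.036 to 0.054. Rps4x had 260, 268 and 296 CPM in APOE3 and 270, 274 and 306 CPM in APOE4. All 8 APOE4 libraries were above the APOE3 median, yet the adjusted p was 0.486.

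Within males, within females and for the difference between them, no gene was called at all. Unadjusted p under 0.05 was found for 5 of 85 members in males, against 14.2% of all genes, and for 5 of 85 in females, against 19.5%. For the difference of the genotype effect between sexes it was found for 2 of 85, against 2.76%. Rps27 had log2 fold changes of -0.10 (SE 0.056) in males and -0.24 (SE 0.056, adjusted p = 0.0617) in females, and the difference of these did not pass the interaction test (-0.14, SE 0.080, adjusted p = 1.00). Rps14 had -0.10 (SE 0.043) in males and -0.13 (SE 0.043) in females.

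Other genes of the ribosome pathway were read from the same fit. Some ribosomal proteins have other symbols. Fau, whose product is cleaved to RPS30, had a log2 fold change of -0.03 (SE 0.037), and Rack1, a scaffold on the small subunit, had 0.02 (SE 0.033). Neither was called.

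Among 26 other mRNAs known to carry the oligopyrimidine motif, 7 were higher in APOE4 and none lower (background 6.71% and 6.09%), with a median log2 fold change of 0.03. They were Pabpc1, the poly(A) binding protein (0.17, SE 0.033), the initiation factor subunits Eif3h (0.17, SE 0.034) and Eif3e (0.15, SE 0.045), the filament protein Vim (0.14, SE 0.032), the RNA-binding proteins Hnrnpa1 (0.23, SE 0.054) and Ybx1 (0.12, SE 0.038), and the histone chaperone Nap1l1 (0.19, SE 0.063). Pabpc1 had lowest, median and highest levels of 792, 815 and 867 CPM in APOE3 and 861, 922 and 1002 CPM in APOE4, so that all APOE4 libraries exceeded the APOE3 median. The calls of Pabpc1, Eif3h, Vim and Hnrnpa1 were kept whichever single library was left out, and those of Eif3e, Ybx1 and Nap1l1 in 5, 5 and 3 of 16 such fits. Replicates 25 to 33 are APOE3 and 35 to 43 APOE4, and the fits that kept the call left out replicate 25, 31, 33, 35 or 37 for Eif3e, 25, 31, 36, 38 or 43 for Ybx1 and 25, 31 or 36 for Nap1l1. In the others the adjusted p rose to at most 0.0734, 0.0906 and 0.105.

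Of 85 tested ribosome biogenesis genes, 4 were lower in APOE4 and none higher (background 6.09% and 6.71%), with 66 below 0 and a median log2 fold change of -0.04. The 4 were Nol6, a nucleolar protein of small subunit processing (-0.17, SE 0.039), Aamp (-0.12, SE 0.028), the nucleolar protein Rrp1 (-0.11, SE 0.030) and the exosome subunit Exosc5 (-0.23, SE 0.067). Nol6 had lowest, median and highest levels of 56.3, 61.4 and 65.0 CPM in APOE3 and 49.9, 55.7 and 59.1 CPM in APOE4, where every library was under the median of APOE3. None of 15 RNA polymerase I genes was called (median -0.03). The call of Exosc5 was kept in 11 of 16 fits without 1 library (lost without replicate 28, 30, 37, 39 or 41, adjusted p at most 0.0669) and those of the other 3 in all.

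Of 20 genes of mTORC1 control and ribosome stress, 5 were lower and none higher (background 6.09% and 6.71%), with a median of -0.06. These were Maf1, a repressor of RNA polymerase III (-0.18, SE 0.044), the mTORC1 inhibitors Ddit4 (-0.35, SE 0.087), Tsc1 (-0.14, SE 0.045) and Deptor (-0.43, SE 0.14), and the cell cycle inhibitor Cdkn1a (-0.11, SE 0.032). Maf1 and Ddit4 kept the call in all 16 fits without 1 library, Cdkn1a in 14 (lost without replicate 30 or 33, adjusted p at most 0.0619). Deptor kept it only without replicate 27, 31, 32, 36, 37 or 43 and Tsc1 only without 27, 31, 32, 36 or 39, with adjusted p of at most 0.103 and 0.0966 in the other fits. Among 9 tested S6 kinase genes, 1 was higher and 1 lower (background 6.71% and 6.09%). Rps6ka3 was higher (0.14, SE 0.040, lost without replicate 26, 28, 30, 39, 40 or 41, with an adjusted p of at most 0.0630) and Rps6ka1 lower (-0.21, SE 0.051, kept in all 16). Each call named in these lists was lost once the score was a covariate, as was every other call.

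The table also held 273 ribosomal protein rows that the annotation does not call protein-coding, mostly pseudogenes. Of these 69 had no counts in any library and 43 were tested. Together they took 0.0183% ± 0.0011 of counts in APOE3 and 0.0195% ± 0.0014 in APOE4 (SD, n = 8 each), so that the protein-coding rows held nearly all ribosomal protein counts. Rpl28-ps1, higher in APOE4, was the 1 row called of the 43 (background 6.71% higher and 6.09% lower). It had 10.2, 11.2 and 12.5 CPM in APOE3 and 11.1, 13.7 and 15.8 CPM in APOE4 (log2 fold change 0.26, SE 0.078, adjusted p = 0.0364). Its call was kept only in the 7 fits without replicate 25, 27, 31, 37, 38, 39 or 43 (adjusted p at most 0.0874 in the other fits). The median log2 fold change of the tested rows was 0.09.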

How the data were processed

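Per the labels, the authors aligned reads with STAR and counted them per gene with featureCounts, and their processing notes name the builds mm10 and hg38. Versions, strand setting and the handling of reads that map to several places are not given in the sources used here. The deposited values are raw counts for 16 libraries and 39056 mouse genes plus human APOE, of which 38872 mouse identifiers matched GENCODE vM21. Genes were filtered with filterByExpr, scaled by TMM and tested with edgeR 4.0.16 (quasi-likelihood F test, genotype only, all 16 libraries, Benjamini-Hochberg over 12481 genes, threshold 0.05). Standard errors are the log2 fold change over the square root of F. A fit of 4 groups (genotype and sex) gave the within-sex and interaction tests, and a fit of genotype plus sex the sex test. Alternatives used DESeq2 1.42.0, limma 3.58.1 and sva 3.50.0 in R 4.3.3.

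In simulated counts for these 12481 genes, the edgeR test recovered 190 of 200 genes changed by 1 log2 unit and 97 of 200 changed by 0.3, with 16 and 5 other genes called. Transcript length, GC content and sharing of sequence were taken from 1 representative transcript per gene, with sharing counted on either strand. Start windows came from RefSeq promoters (GRCm38.p6), which held no entry for 26 members. Each culture came from its own animal, so p-values measure the spread between cultures. Members, lists and tests were chosen with earlier results of these data known. Named members were those past the threshold, the 10 largest changes, the 5 highest levels per kb, X-linked genes and paralogs with their partners, plus genes in counts of few and genes named for their role. In other lists the called genes were named, the first 3 per direction by the rule and the rest after their values were seen. Single values of a few genes are not reported here, although these genes are in the counts and medians.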

Additional observations from a re-analysis of the deposited data

Results flagged for a closer look

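In groups of 8 libraries, a single library was looked for whose gap to the next value exceeded 0.526 of the whole range of its genotype. This was done for the share of counts and for each gene named by the rule or for its role that was tested, in 104 groups, and chance alone flags about 1 in 20. It was met 7 times, 6 of them in APOE4 replicate 35. That library was highest in its genotype for Rps28 (107.9 CPM, next 92.6), Rps29 (183.9 CPM, next 167), Rpl36a (85.53 CPM, next 77.1), Rps27l (42.29 CPM, next 31.8) and Rpl36al (38.16 CPM, next 32.2). It was lowest for Tsc1 (40.94 CPM, next 45.9). APOE4 replicate 36 was lowest for Nap1l1 (81.86 CPM, next 97.1).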

How the results depend on the processing

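The count of members called lower was 2, and it was 1 with no filter on low counts, 0 with the score of cell cycle genes as a covariate and 6 with GC content and length corrected. It was 3, with Rps29 added, by the DESeq2 Wald test, with 1 surrogate variable and by limma voom. It ranged from 1 to 4 when 1 library was left out, with 1 without APOE3 replicate 26, 30 or 33 or APOE4 replicate 39 or 41, and 4 without APOE4 replicate 35. The cause was not tested. Beyond the main fit, shares of all genes called are given above only for the fits with GC content and length corrected and with the cell cycle score. For the other settings it is thus not shown whether the members differ from all genes. In females 0 members were called, and 1 with no filter on low counts, with a range of 0 to 1 when 1 library was left out (1 without APOE3 replicate 31 or APOE4 replicate 35). No setting called a member higher in APOE4, and none called a member within males, by sex or in the interaction. The median log2 fold change lay between -0.05 and 0.0065 over the other settings and between -0.015 and 0.014 without 1 library.

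Rps27 kept its call in 12 of 13 other settings (lost with the cell cycle score) and Rps14 in 11 (lost also with no filter). With that score as a covariate the sign changed for Rpl22l1 (-0.054), Rpsa (-0.073), Rps2 (-0.066), Rpl28 (-0.0031), Rpl9-ps6 (-0.25), Rplp1 (-0.10), Rpl41 (-0.075), Rplp0 (-0.060), Rpl36a (-0.049), Rps27l (-0.051), Rpl36al (-0.16), Rpl7l1 (-0.0037), Rack1 (-0.019), Nap1l1 (-0.023), Ddit4 (0.0073) and Deptor (0.12). With GC content and length corrected it changed for Rpl10 (-0.019), Rpl36a (-0.051), Rps27l (-0.017), Rpl7 (-0.040), Rps27rt (-0.061) and Rack1 (-0.0089). It changed with limma voom quality weights for Rplp1 (-0.0077) and Rpl5 (0.0047), with upper-quartile factors for Rpl5 (0.0015), and for Rps27rt with no filter (-0.0016) or 1 surrogate variable (-0.00032). Without 1 library, the log2 fold change ranged from -0.00079 to 0.18 for Rpl9-ps6, from -0.027 to 0.027 for Rplp1, from -0.020 to 0.025 for Rpl36a, from -0.019 to 0.077 for Rps27l, from -0.013 to 0.081 for Rpl36al, from -0.044 to 0.049 for Rps27rt, from -0.025 to 0.030 for Rpl5, from -0.027 to 0.0085 for Rps6 and from -0.026 to 0.011 for Rplp2. The settings not listed here changed the sign of none of the genes run.

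No paired analysis was possible because the genotypes share no replicate numbers. With 12717847 to 18624417 counts per library, rows such as Rpl22l1, Rpl24 and Rpl9-ps6 had wide 95% intervals. These include a log2 fold change of 0.26, the median absolute value of the called genes.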
